A study of Zea mays with 6 samples.

Results

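Transcript levels in maize embryo sacs 14 to 16 h after pollination were compared with those in the nucellus, using the 2 libraries of each tissue, 4 of the 6 libraries of the study. The libraries were chosen by the tissue named in their labels, and the unique read counts of every transcript model were used, with a model missing from a table taken as 0. All plants were of the inbred line Q319. Embryo sacs and nucellus were freed from ovule slices by enzyme treatment, poly(A) RNA was sequenced, and each tissue had 2 biological replicates. The remaining 2 libraries hold embryo sacs that were not pollinated, and their values are set beside those of the comparison. The labels do not say whether the nucellus came from pollinated ovules, nor how many embryo sacs were pooled, so tissue and pollination cannot be told apart in this comparison. Embryo sacs at this stage may hold pollen tube contents, and no label separates their RNA from that of the embryo sac.

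The embryo sac is the female gametophyte of flowering plants and contains the egg cell, synergids, central cell and antipodal cells. A pollen tube enters it through a synergid and releases sperm cells, which fertilise the egg cell and the central cell to start embryo and endosperm. The nucellus is the maternal tissue of the ovule in which the embryo sac lies.

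In units of 1000 unique reads, the libraries held 2541 and 2680 for pollinated embryo sac and 3006 and 3199 for nucellus. A single read stood for 0.508 and 0.490 CPM (counts scaled to a common library size with TMM factors) in the pollinated libraries and for 0.229 and 0.217 CPM in the nucellus libraries. In pollinated embryo sac 10.3% and 10.7% of the reads fell in the 10 leading models, against 2.90% and 2.87% in nucellus. Libraries of the same tissue correlated at a Pearson r of 0.981 for pollinated embryo sac and 0.983 for nucellus over 42007 models on the log2 CPM scale. The deposited tables of the tissues were not annotated alike. The GO process text of shared models was identical between the libraries of pollinated embryo sac and between those of nucellus. It differed for 9.40% to 9.53% of models between pollinated embryo sac and nucellus. Between nucellus and unpollinated embryo sac, replicate 1 of each, it differed for 2.44%. Whether reads were also assigned differently was not tested. Of 8015 models with at least 10 CPM in all 4 other libraries, 5 had no read in pollinated embryo sac, and of 8600 such models 137 had no read in nucellus.

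Of 18844 tested models, 5132 were higher in pollinated embryo sac, 27.2% of those tested, and 5268 were lower, 28.0% (called where the adjusted p of the edgeR quasi-likelihood test was under 0.05 and the log2 change was at least 1 in size). The higher models belong to 5035 genes and the lower models to 4940. In 5115 of the higher and 5266 of the lower models, the ranges of the tissues did not overlap. These counts are no separate support, since a call already requires a difference beyond the spread of the libraries. The same holds for each called model below that is said to lie apart from nucellus in its libraries. The share without overlap over all tested models was not counted. The balance depended on the scaling: with total reads in place of TMM factors 3249 were higher and 9250 lower, so the share of higher models among the calls moved from 49.3% to 26%. It was 25.2% with limma on log2(RPKM + 1) over 24492 models. Over all tested models the median of the log2 changes was -0.06 with TMM factors and -0.99 with total reads, and all changes below are relative to the former. In bulk samples such as these, fewer cells of a type and less RNA per cell cannot be told apart.

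**Figure D1:**
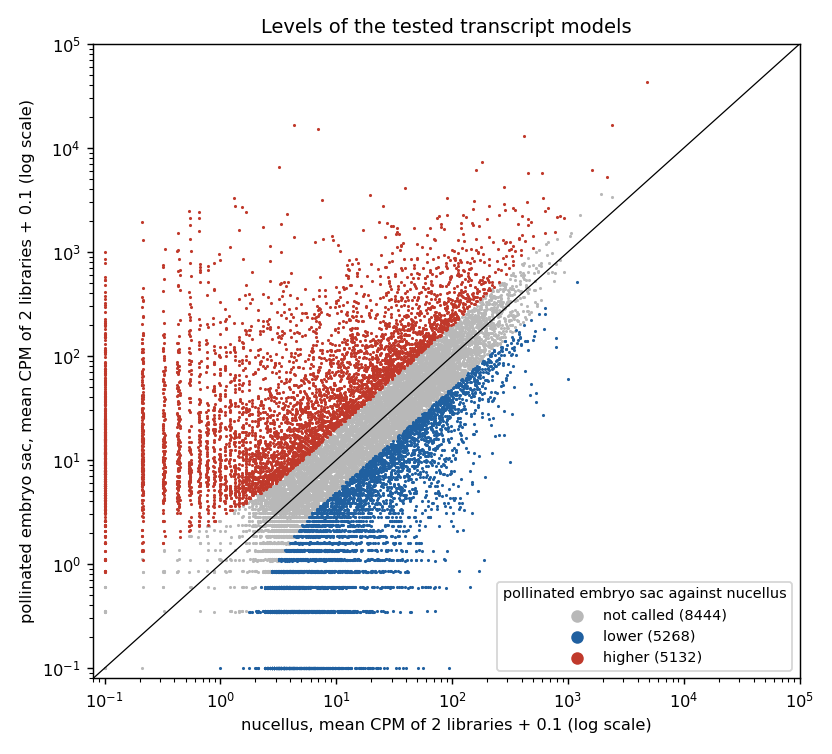
Mean CPM of the 2 nucellus libraries (horizontal, log scale, 0.1 added) against the 2 pollinated embryo sac libraries (vertical, log scale, 0.1 added) for 18844 tested models, with the line of equal levels. The 5132 models called higher include 494 without a read in nucellus at the left edge, and the 5268 called lower include 579 without a read in pollinated embryo sac at the bottom edge.

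Models called higher held 63.5% and 63.8% of all reads of the pollinated libraries and 16.6% and 17.0% of the nucellus reads. Models called lower held 24.9% and 24.5% of the nucellus reads and 3.59% and 3.55% of the reads of the pollinated libraries. Large differences were more often upward: 1675 models were higher and 1168 lower by 4 or more on the fitted log2 scale. The directions are not measured over the same range, since a single read stands for more CPM in the pollinated libraries. This count was not repeated with total reads, which moved the median log2 change by -0.92. In unpollinated embryo sac the models called higher had a median level of 20.3 CPM, against 31.5 CPM in pollinated embryo sac and 3.70 CPM in nucellus. Those called lower had a median of 5.70 CPM in unpollinated embryo sac, 1.75 CPM in pollinated embryo sac and 10.97 CPM in nucellus.

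The most abundant transcripts of pollinated embryo sac per length were models without an informative description. A model described as unknown (GRMZM2G168651_T01) led both tissues at 20710 RPKM in pollinated embryo sac and 4332 RPKM in nucellus. Its levels were 39940 and 46710 CPM against 5151 and 4472 CPM in nucellus, higher by 3.17 ± 0.11 on the log2 scale (adjusted p = 3.28e-58). An uncharacterized protein precursor (GRMZM2G149930_T01) followed at 15820 RPKM in pollinated embryo sac and 7.61 RPKM in nucellus, with 16670 and 16430 CPM against 4.13 and 4.33 CPM, a 3913-fold difference. A hypothetical protein (GRMZM2G088861_T01) had 15290 and 15140 CPM against 6.65 and 7.15 CPM, also with no overlap. The transcripts that followed it by RPKM in nucellus were also abundant in pollinated embryo sac. A peptidyl-prolyl cis-trans isomerase (GRMZM2G326111_T01), an enzyme of protein folding, had 2118 and 2224 CPM in nucellus and 5129 and 5422 CPM in pollinated embryo sac. Its difference of 1.28 ± 0.10 passed the test here but fell to 0.36 with total reads. Tubulin alpha-3 chain (AC195340.3_FGT001), a microtubule subunit, did not pass the threshold on size, with 2216 and 2568 CPM in nucellus and 3267 and 3538 CPM in pollinated embryo sac.

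Every tested model of the list of known embryo sac genes was higher in pollinated embryo sac. All 12 tested of 13 listed models were called, of 11 genes, and 9 of them had no read in nucellus. Those 9 passed the filter on low counts only through embryo sac libraries, so no lower call was possible for them. The fitted log2 changes of the 12 had a median of 10.33, or 6.31 with those 9 at their bound, against -0.06 for all tested models. Their summed level was 3498 and 3327 CPM in the pollinated libraries against 22.2 and 20.6 CPM in the nucellus libraries. These genes were listed as embryo sac genes, so they also check the tissue labels, but for those 9 the filter left no other direction. MEG1, described below as a protein of endosperm transfer cells, is counted among these genes. The member not tested, a LOB model (GRMZM2G118250_T06), had no read in pollinated embryo sac and 1 and 4 reads in the nucellus libraries.

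ZmEBE-2 (GRMZM2G167733_T02), of a family named after the embryo sac, the basal endosperm transfer layer and the region around the embryo, stood at 1112 and 1005 CPM in pollinated embryo sac and at 0.459 and 0 CPM in nucellus. The groups lay far apart, with a ratio of 4747 (counting interval 1313 to 39210). The other model of that gene (GRMZM2G167733_T01) had 3.05 and 3.92 CPM and no read in either nucellus library. An EBE-type model of another gene (GRMZM2G087766_T01) had 507 and 449 CPM and no read in either nucellus library, at least 715-fold higher. The remaining EBE-type gene (GRMZM2G129157_T01) had 772 and 765 CPM but also 13.3 and 14.1 CPM in nucellus, so it was higher by only 5.81 ± 0.15 on the log2 scale. ES2 precursor (GRMZM2G009359_T01), a defensin-like secreted protein, had 299.5 and 325 CPM and no read in either nucellus library, at least 467-fold higher. ES1 precursor (GRMZM2G012012_T01) of the same family had 101 and 125 CPM and was at least 169-fold higher. The ES2 models of other genes (GRMZM2G128301_T01 and GRMZM2G359064_T01) were at least 112-fold and at least 15.2-fold higher, the second with unequal replicates of 6.09 and 14.2 CPM.

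EGG APPARATUS-1 is a small secreted protein that attracts the pollen tube in maize. The model of that name with more reads (GRMZM2G157505_T01) had 393 and 362 CPM in pollinated embryo sac and 8.26 and 5.63 CPM in nucellus, higher by 5.76 ± 0.16. The other (GRMZM2G456746_T01) had 18.8 and 21.6 CPM and no read in either nucellus library, at least 30.1-fold higher. Di-SUMO-like protein (GRMZM2G006324_T01), needed for embryo sac maturation in maize, was at least 54.4-fold higher at 35.5 and 37.2 CPM. MEG1 (GRMZM2G145466_T01), a small cysteine-rich protein of endosperm transfer cells, had 179.7 and 139 CPM and no read in either nucellus library, at least 238-fold higher. In unpollinated embryo sac MEG1 had 846 and 762 CPM, and the pollinated minus unpollinated log2 difference was -2.34 ± 0.12 (adjusted p = 3.37e-42).

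**Figure D2:**
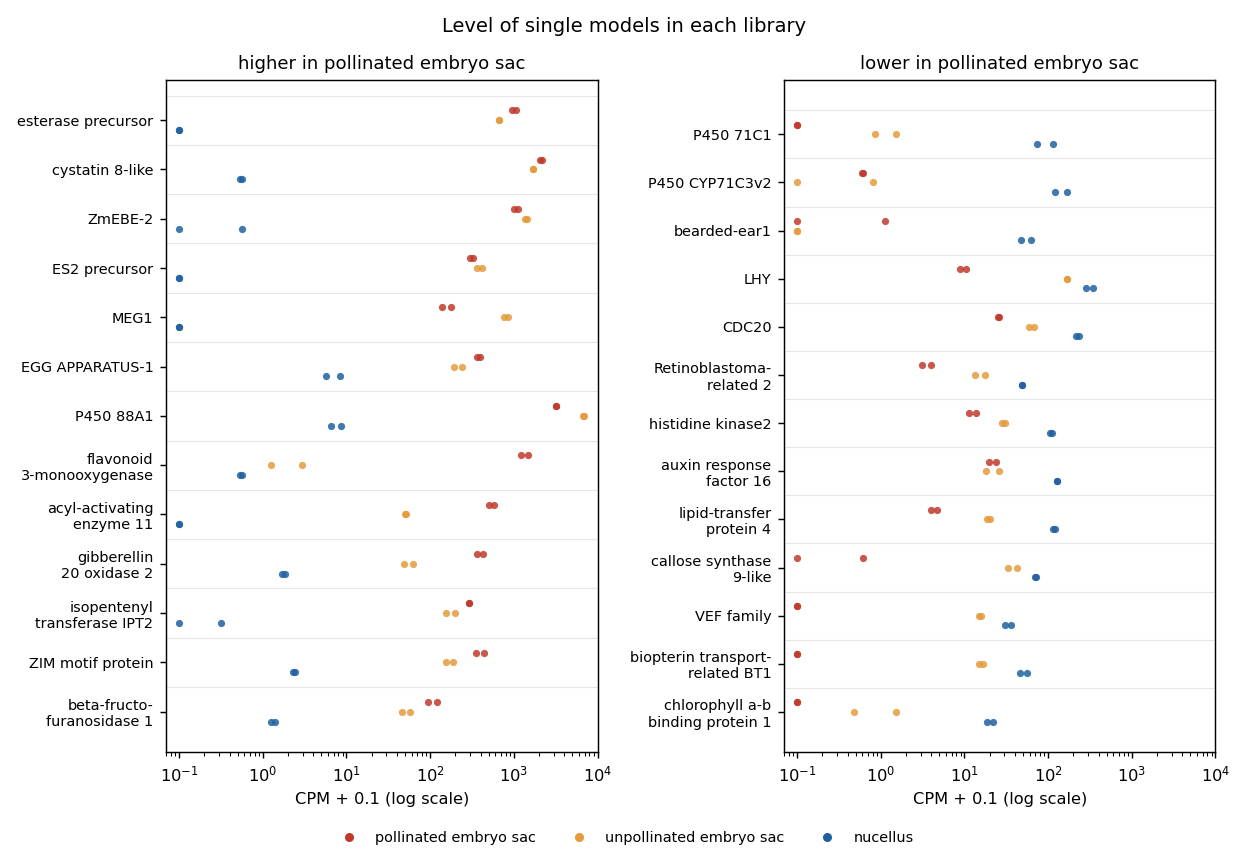
CPM with 0.1 added (log scale) of 13 models higher and 13 models lower in pollinated embryo sac, 1 point per library, 2 libraries per tissue. Pollinated embryo sac and nucellus points do not overlap, which was a condition for naming part of these models. Unpollinated embryo sac lies close to pollinated embryo sac for ES2 precursor but close to nucellus for flavonoid 3-monooxygenase.

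The wider list of small secreted peptides had 23 of 27 tested models higher and 3 lower, with a median of 8.11, or 4.33 with 14 models at their bound. For its models without a read in nucellus, the filter on low counts left no lower call possible. It also holds the ES1, ES2, MEG1 and EGG APPARATUS-1 models counted above, so it is not a separate result for these. All 10 tested models described as ae1 protein precursor were higher. The most abundant of them (GRMZM2G038024_T01) had 498 and 439 CPM against 0.229 and 0.433 CPM, with a ratio of 1400 (counting interval 478 to 6794). A cysteine-rich protein described as LCR70 (GRMZM2G380656_T01) had 37.1 and 29.4 CPM against 2.98 and 5.2 CPM, and far more, 986 and 707 CPM, in unpollinated embryo sac. The lower members were all described as RALFL33, of a family of secreted peptides that raise the pH of the cell wall. RALFL33 (GRMZM2G171394_T01) had 5.08 and 9.3 CPM in pollinated embryo sac and 42.7 and 37.9 CPM in nucellus, with a log2 change of -2.47 ± 0.27. Both models described as RALF precursor, without that number, were higher.

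Among called models with an informative description and at least 10 CPM, the largest fitted upward differences were those of esterases, an acyl-activating enzyme and a subtilisin-like protease. Esterase precursor (GRMZM2G123365_T01), of a class of hydrolases that cut ester bonds, had 1049 and 942 CPM in pollinated embryo sac and no read in either nucellus library, at least 1488-fold higher. A second esterase gene (GRMZM2G046306_T01) was at least 853-fold higher at 578 and 564 CPM, and another esterase (GRMZM2G111710_T01) had 745 and 754 CPM and 2 reads in nucellus. Acyl-activating enzyme 11 (GRMZM2G092813_T01), of a class that couples acids to coenzyme A, had 580.3 and 505 CPM and no read in either nucellus library, at least 811-fold higher. It stood at 51.5 and 49.6 CPM in unpollinated embryo sac, below the pollinated level by a log2 difference of 3.42 ± 0.13 (adjusted p = 4.19e-58). A subtilisin-like protease (GRMZM2G059165_T01), described after the Arabidopsis SDD1 protease, had 535 and 548 CPM and was at least 809-fold higher. Early nodulin 20 precursor (GRMZM2G055434_T01) was at least 397-fold higher at 257 and 274 CPM, while another model of that description (GRMZM2G116632_T01) had no read in either pollinated library and 9.86 and 16.2 CPM in nucellus. A TMV response-related protein (GRMZM2G073548_T01) was at least 247-fold higher at 173 and 157 CPM.

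Enzymes of phenylpropanoid and flavonoid synthesis, the pathway from phenylalanine to pigments and lignin, had 17 of 29 tested models higher and 7 lower, with a median log2 change of 1.73. The lower calls were 4 without either nucellus library in turn and 3 in a fit of the 4 libraries alone. Flavonoid 3-monooxygenase (GRMZM2G125482_T01), which hydroxylates the flavonoid ring, had 1203 and 1464 CPM against 0.459 and 0.433 CPM, higher by 11.42 ± 0.23 (adjusted p = 6.72e-97). Its level in unpollinated embryo sac was 2.84 and 1.14 CPM, close to nucellus, and the pollinated level exceeded it by 9.34 ± 0.21 on the log2 scale (adjusted p = 3.05e-89). Phenylalanine ammonia-lyase, the entry enzyme of the pathway (GRMZM2G118345_T01), had 94.9 and 104 CPM against 2.75 and 2.38 CPM, and 3.55 and 7.63 CPM in unpollinated embryo sac. Dihydroflavonol-4-reductase (GRMZM2G057328_T01), of the branch to anthocyanins, had 399 and 406 CPM against 14 and 15.2 CPM. All 3 models lay apart from nucellus in every library. The lower members had at most 5.60 CPM in either tissue, with the largest change in cinnamyl alcohol dehydrogenase1 (GRMZM2G046070_T02), a lignin enzyme, with 2.98 and 3.03 CPM in nucellus and no read in either pollinated library.

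Gibberellin and abscisic acid genes had 25 of 30 tested models higher and 2 lower, with a median log2 change of 2.28. Gibberellin 20 oxidase 2 (GRMZM2G099467_T01), a late enzyme of gibberellin synthesis, had 430.5 and 358 CPM against 1.6 and 1.73 CPM, higher by 7.85 ± 0.20. Cytochrome P450 88A1 (GRMZM2G093195_T01), of the family that makes gibberellin precursors, had 3155 and 3221 CPM against 8.49 and 6.5 CPM, a 426-fold difference, and 6830 and 6787 CPM in unpollinated embryo sac. 9-cis-epoxycarotenoid dioxygenase 1 (GRMZM2G014392_T01), which starts abscisic acid synthesis, had 531 and 519 CPM against 17.4 and 23 CPM, and an ABA-responsive protein (GRMZM2G106622_T01) had 1305 and 1179 CPM against 5.05 and 7.8 CPM. In both, every pollinated library was above every nucellus library. Of the 2 lower models, carotenoid cleavage dioxygenase 4 (GRMZM2G110192_T01) had 1.01 and 1.47 CPM against 11.5 and 11.3 CPM.

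Ethylene genes had 19 of 31 tested models higher and 5 lower, with a median of 2.53, and 19 and 9 with total reads. ACC synthase 2 (GRMZM2G163015_T01), of the committed step of ethylene synthesis, had 21.8 and 23 CPM and no read in either nucellus library, at least 33.5-fold higher. ACC oxidase (GRMZM2G072529_T01), the last step, had 114 and 103 CPM against 0.917 and 1.3 CPM, and 0 and 0.763 CPM in unpollinated embryo sac, where it rests on 2 reads. Ethylene-responsive element binding protein 2 (GRMZM2G103085_T01), a transcription factor of the response, had 358 and 394 CPM against 8.26 and 7.58 CPM, higher by 5.56 ± 0.16. An AP2 domain protein (GRMZM2G369472_T01) had 730.0 and 620.4 CPM against 8.95 and 16.5 CPM. Ethylene insensitive 2 (GRMZM2G068217_T01), a central signalling protein, was lower, with a log2 change of -1.60 ± 0.12, and 125 and 134 CPM against 386 and 401 CPM. Ethylene receptor homolog2 (GRMZM2G420801_T01) did not pass the size threshold, with 163 and 160.1 CPM against 189.9 and 196 CPM, but with total reads its log2 change was -1.18 and passed.

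Jasmonate genes had 13 of 23 tested models higher (56.5%) and 5 lower (21.7%), beside 27.2% and 28.0% of all tested models. Their median was 1.85. The counts were 11 and 9 with total reads. The lower calls were 3 without replicate 1 or replicate 2 of pollinated embryo sac or replicate 1 of nucellus, and 2 with DESeq2. 12-oxo-phytodienoic acid reductase3 (opr3, GRMZM2G156712_T01), an enzyme of jasmonate synthesis, had 125 and 115 CPM against 0.229 and 0.65 CPM, a 274-fold difference. Lipoxygenase lox3 (GRMZM2G109130_T01), which oxidises the fatty acids the pathway starts from, had 85.3 and 95.5 CPM against 0.688 and 0.217 CPM. ZIM motif proteins, a family that includes repressors of the response, were higher in all 5 tested models of that description. ZIM motif protein GRMZM2G173596_T01 had 441 and 356 CPM against 2.29 and 2.17 CPM, and GRMZM2G445634_T01, with the most reads, had 826 and 867 CPM against 102 and 109 CPM. A wound/stress protein (GRMZM2G087245_T01) was lower, with a log2 change of -1.91 ± 0.21, with 15.7 and 17.1 CPM against 61.7 and 62.4 CPM.

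Cytokinin genes went both ways. Of 25 tested models 12 were higher (48.0%) and 7 lower (28.0%, the share of all tested models), a balance that turned to 9 and 10 with total reads. Isopentenyl transferase IPT2 (GRMZM2G084462_T01), of the first step of cytokinin synthesis, had 293 and 294 CPM against 1 read in nucellus, and cytokinin dehydrogenase 4 (GRMZM5G817173_T03), which degrades cytokinin, had 235 and 238 CPM against 0.459 and 0.433 CPM. Both lay apart from nucellus. Another degrading enzyme, cytokinin dehydrogenase 5 (GRMZM2G325612_T01), was lower, with no read in either pollinated library against unequal levels of 4.82 and 14.9 CPM, at least 6.61-fold lower, a call that DESeq2 did not make (adjusted p = 0.2155). Cytokinin receptors were lower as well: histidine kinase2 (GRMZM2G471529_T01) had 11.2 and 13.7 CPM against 104 and 110.3 CPM, with a log2 change of -3.10 ± 0.19, and histidine kinase3 (GRMZM2G158252_T01) had 11.7 and 8.81 CPM against 98.4 and 90.5 CPM. Auxin genes had 20 higher (35.1%) and 17 lower (29.8%) of 57, beside 27.2% and 28.0% of all tested models, and 16 and 28 with total reads. SAUR56 (GRMZM2G414727_T01), of an auxin-induced family, had 1289 and 1064 CPM against 8.95 and 11.5 CPM, while auxin response factor 16 (GRMZM2G028980_T01), a transcription factor, had 19.8 and 24 CPM against 127 and 129 CPM. Another model described as SAUR56 (GRMZM5G818247_T01) was lower, with 5.73 and 6.28 CPM in nucellus against 1 read in pollinated embryo sac.

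Cell wall remodelling genes had 37 of 57 tested models higher and 3 lower, with a median of 2.13, or 2.02 with 8 models at their bound, and 30 and 5 with total reads. A pectinesterase inhibitor domain protein (GRMZM2G457612_T01), of a family that restrains pectin demethylation, had 639 and 683 CPM against 0.229 and 0.433 CPM, with a ratio of 1979 (counting interval 676 to 9601). Endoglucanase 4 precursor (GRMZM2G141911_T01), a wall hydrolase, was at least 112-fold higher at 66.5 and 83.2 CPM. Beta-expansin 4 (GRMZM2G103672_T01), of a family that loosens grass cell walls, was lower, with 3.05 and 0.979 CPM against 25.5 and 24.3 CPM. Glucan synthesis genes were split, with 8 higher and 8 lower of 22 (36.4% each, beside 27.2% and 28.0% of all tested models), and 6 and 11 with total reads. CSLF3 (GRMZM2G339645_T01), of a family that makes mixed-linkage glucan, had 184 and 179 CPM against 2.98 and 2.17 CPM. Callose synthase 9-like models GRMZM2G331861_T01 and GRMZM2G473182_T03 were lower. GRMZM2G331861_T01 had 1 read in pollinated embryo sac against 70.4 and 70.8 CPM, and GRMZM2G473182_T03 had 3.05 and 2.94 CPM against 108 and 93.8 CPM.

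Sucrose cleavage and sugar transport had 7 of 15 tested models higher and 1 lower, against 6 and 5 with total reads. The lower call was lost without replicate 1 of pollinated embryo sac, which left 0. Beta-fructofuranosidase 1 (IVR1, GRMZM2G394450_T01), an invertase that splits sucrose, had 122 and 94.5 CPM against 1.15 and 1.3 CPM, an 88.4-fold difference. A hexose transporter (GRMZM2G040871_T01) was at least 23.5-fold higher at 16.8 and 14.7 CPM. Class III peroxidases, secreted heme enzymes of wall and stress chemistry, had 8 of 9 models higher. Peroxidase 1 precursor (GRMZM2G177792_T01) had 209 and 231 CPM against 3 reads in nucellus, yet 2791 and 2904 CPM in unpollinated embryo sac, above the pollinated level. Peroxidase 24 (GRMZM2G144648_T01) had 771 and 690.5 CPM against 107 and 118 CPM. The single lower model, also described as peroxidase 1 (GRMZM2G104394_T01), had unequal replicates, 4.06 and 0.49 CPM against 9.17 and 18.4 CPM.

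Protease inhibitors had 13 of 18 models higher (72.2%, against 27.2% of all tested models) and 1 lower, with a median of 2.97, and 11 and 3 with total reads. The 1 lower call was lost without replicate 1 of pollinated embryo sac or replicate 2 of nucellus, which left 0. Proteases had 10 of 58 higher (17.2%) and 20 lower (34.5%, against 28.0% of all), with a median of -0.34, and 9 and 34 with total reads. The difference between these lists was not tested. Cysteine proteinase inhibitor 8-like (GRMZM2G041317_T01), a cystatin, had 2198 and 2079 CPM against 0.459 and 0.433 CPM, higher by 12.10 ± 0.22 (adjusted p = 1.27e-103). Cystatin6 (GRMZM2G401328_T01) had 454 and 422 CPM against 0.917 and 0.65 CPM. Both cystatins were also abundant in unpollinated embryo sac, at 1715 and 1678 CPM and at 805 and 728 CPM. Among proteases, cysteine protease 1 (GRMZM2G340065_T01) was higher, with 2137 and 2116 CPM against 65.6 and 81.7 CPM, and a Ulp1 protease (GRMZM2G174667_T01), which removes SUMO from proteins, was lower, with 16.8 and 15.2 CPM against 75.5 and 70.6 CPM. The defence list, which shares models with the inhibitor and P450 lists, had 52 of 81 higher and 12 lower, with a median of 1.80, and 38 and 19 with total reads. Glutathione transferase24 (GRMZM2G032856_T01), a detoxifying enzyme, had 136 and 131 CPM against 2 reads in nucellus and 2.84 and 1.52 CPM in unpollinated embryo sac. Aquaporin TIP2.1 (GRMZM2G125023_T01), a water channel, had 15.7 and 16.2 CPM against no read in nucellus and 2 reads in unpollinated embryo sac.

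The largest fitted downward difference of such models was that of cytochrome P450 71C1 (GRMZM2G172491_T01), of a family that makes benzoxazinoid defence compounds in maize. The nucellus libraries held 73.4 and 114 CPM and the pollinated ones no read, which makes it at least 62.7-fold lower, and it stood at 1.42 and 0.763 CPM in unpollinated embryo sac. CYP71C3v2 (GRMZM2G063756_T01) of the same family had 0.508 and 0.49 CPM against 119 and 166 CPM, a ratio of 288 (counting interval 79.5 to 2379). Both were low in both kinds of embryo sac and lay apart from nucellus. P450 enzymes as a list had 12 of 25 models higher and 5 lower, with a median of 0.91 that was -0.01 with total reads. Biopterin transport-related protein BT1 (GRMZM2G145886_T01) had no read in either pollinated library against 55.3 and 45.5 CPM, at least 33.7-fold lower, and 14.9 and 16.4 CPM in unpollinated embryo sac. Receptor-like protein kinase 5 (GRMZM2G032132_T01) had 4.57 and 3.43 CPM against 88.8 and 119 CPM, and lipid-transfer protein 4 (GRMZM5G898755_T01), of small secreted lipid carriers, had 4.57 and 3.92 CPM against 122 and 114 CPM.

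Developmental transcription factors went both ways. Of 21 tested MADS-box models, factors of floral organ and ovule identity, 7 were higher (33.3%) and 11 lower (52.4%), with a median of -1.24. The shares of all tested models were 27.2% and 28.0%. Bearded-ear1 (GRMZM2G160565_T01), which acts in maize floral development, had 1.01 and 0 CPM against 47.5 and 62.2 CPM, a ratio of 110.4 (counting interval 30.4 to 914), and no read in unpollinated embryo sac. The AGAMOUS homologue (GRMZM2G052890_T01), of the class that specifies carpels and ovules, was lower, with a log2 change of -1.24 ± 0.12, with 107 and 106 CPM against 243 and 259.7 CPM. The higher members with the largest change were AGL80-like models GRMZM5G853066_T01 and GRMZM5G839969_T01, named after an Arabidopsis factor of the central cell. GRMZM5G839969_T01 had 114 and 118 CPM against 1 read in nucellus, and GRMZM5G853066_T01 had 42.6 and 39.7 CPM and no read in either nucellus library. AGL66 (GRMZM2G152415_T01) had 66 and 74.4 CPM against 0.229 and 0.433 CPM, with 234 and 257 CPM in unpollinated embryo sac. Homeobox and related factors had 12 of 45 higher and 16 lower, or 26.7% and 35.6% beside 27.2% and 28.0% of all tested models, and 11 and 24 with total reads. WOX2B (GRMZM2G339751_T01), of a homeobox family active in early embryos, was at least 17.4-fold higher at 8.63 and 14.7 CPM. HD-Zip IV models, of a family known from epidermis, went both ways: GRMZM2G116658_T01 had 264 and 279.6 CPM against 47 and 58 CPM, and GRMZM2G126646_T01 had 10.2 and 10.3 CPM against 77.8 and 92.7 CPM.

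Cell cycle and chromatin genes were lower more often than higher. Of 40 cell cycle models 5 were higher and 17 lower, with a median of -0.64, and of 39 DNA methylation and chromatin models 1 was higher and 18 were lower, with a median of -0.98. With total reads the higher and lower counts were 2 and 23 for cell cycle and 0 and 31 for chromatin models. Cell division cycle protein 20 (GRMZM2G063192_T01), which activates the anaphase-promoting complex, had 24.9 and 25.5 CPM against 215 and 234 CPM, with a log2 change of -3.15 ± 0.15. Cyclin-dependent kinase inhibitor 2 (GRMZM2G101613_T01), a brake on the cell cycle, had 109 and 123 CPM against 4.36 and 5.2 CPM and was higher. Retinoblastoma-related protein 2 (GRMZM2G153150_T01), of a family that restrains entry into DNA replication, had 3.05 and 3.92 CPM against 48.6 and 48.7 CPM. A model described as DNA (cytosine-5)-methyltransferase 1 (met2, GRMZM2G025592_T01), of the enzymes that methylate DNA, had 79.7 and 78.8 CPM against 206 and 277 CPM. It had 31.3 and 38.1 CPM in unpollinated embryo sac. A VEF family protein (GRMZM2G157422_T01), of a domain found in Polycomb proteins, is not a member of these lists. It had 35.8 and 30.1 CPM in nucellus and no read in either pollinated library, at least 22-fold lower. In unpollinated embryo sac this VEF model had 14.9 and 15.6 CPM. The higher chromatin model was an RNA-dependent RNA polymerase (GRMZM2G109787_T01), with 57.9 and 66.6 CPM against 18.8 and 22.3 CPM, whose difference of 1.59 ± 0.19 fell to 0.67 with total reads. Histones had 6 higher and 6 lower of 46, both shares below those of all tested models, and 2 and 26 with total reads.

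Clock and light signalling genes had 3 of 18 models higher and 14 lower, with a median of -2.24, or -1.86 with 2 models at their bound. LHY (GRMZM2G014902_T01), a morning transcription factor of the plant clock, had 8.63 and 10.3 CPM against 285 and 346 CPM, with a log2 change of -5.05 ± 0.18 (adjusted p = 5.78e-63), with 166 CPM in both libraries in unpollinated embryo sac. PRR95 (GRMZM2G367834_T01), of the pseudo-response regulators that repress the morning genes, had 4.06 and 3.43 CPM against 101 and 83 CPM. Phytochrome A1 (GRMZM2G157727_T02), a red and far-red light receptor, had 173 and 178 CPM against 564 and 481 CPM. These 3 models lay lower in every pollinated library than in every nucellus library. The higher models were all described as early flowering 4, a clock component, such as GRMZM2G382774_T01 with 127 and 156 CPM against 22.2 and 26.4 CPM. The labels give no hour of day for either tissue.

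**Figure D3:**
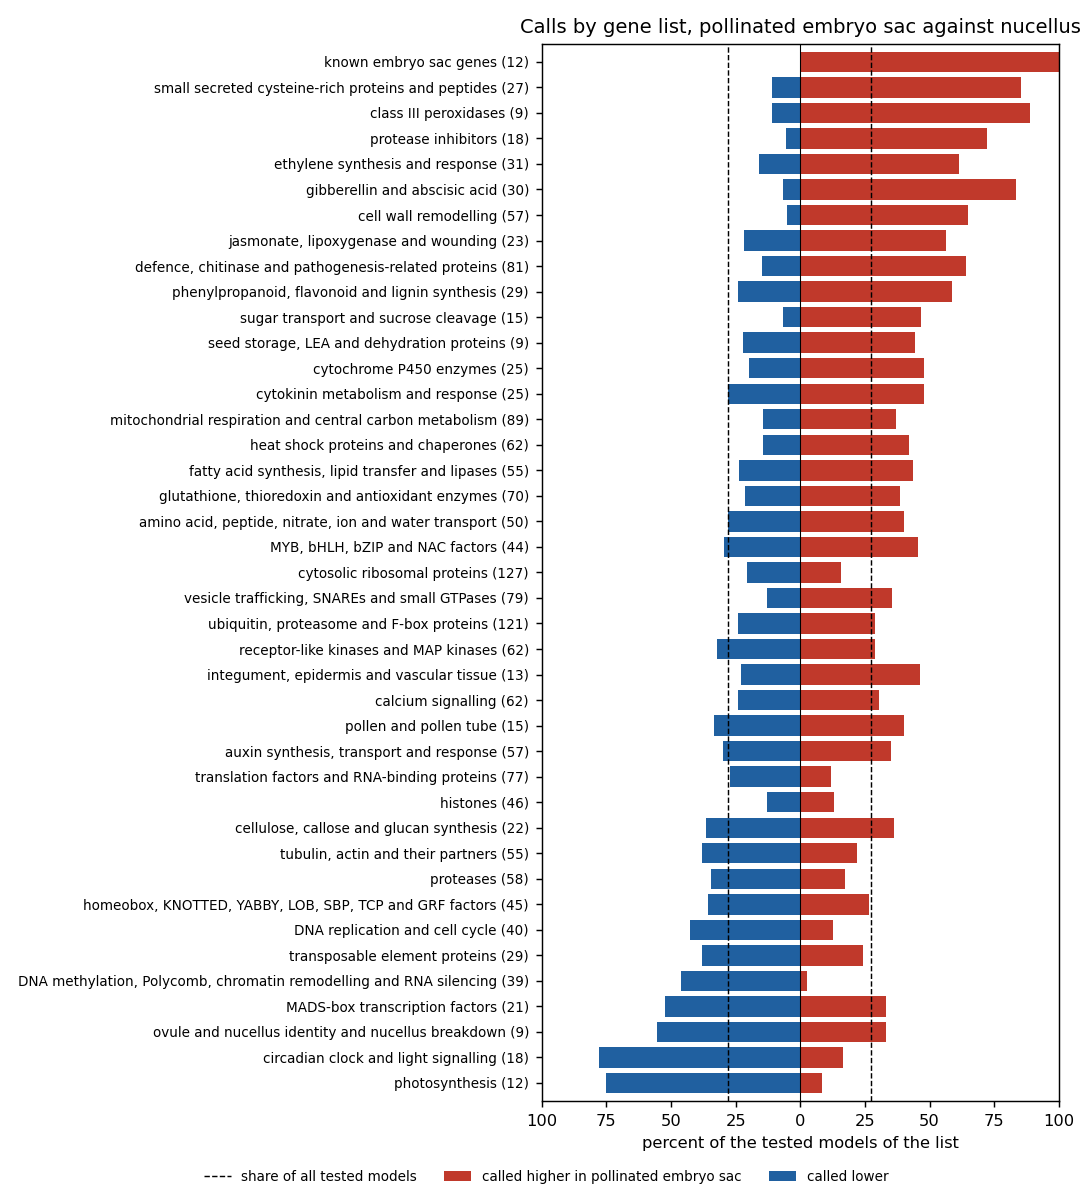
Share of the tested models of each of 41 gene lists called higher (right) or lower (left) in pollinated embryo sac against nucellus, in percent, with the number tested in brackets and lists in order of median log2 change. Dashed lines mark the shares over all tested models, 27.2% higher and 28.0% lower. All known embryo sac genes tested are higher, 9 of 12 without a read in nucellus, while clock and light genes reach 77.8% lower.

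**Figure D4:**
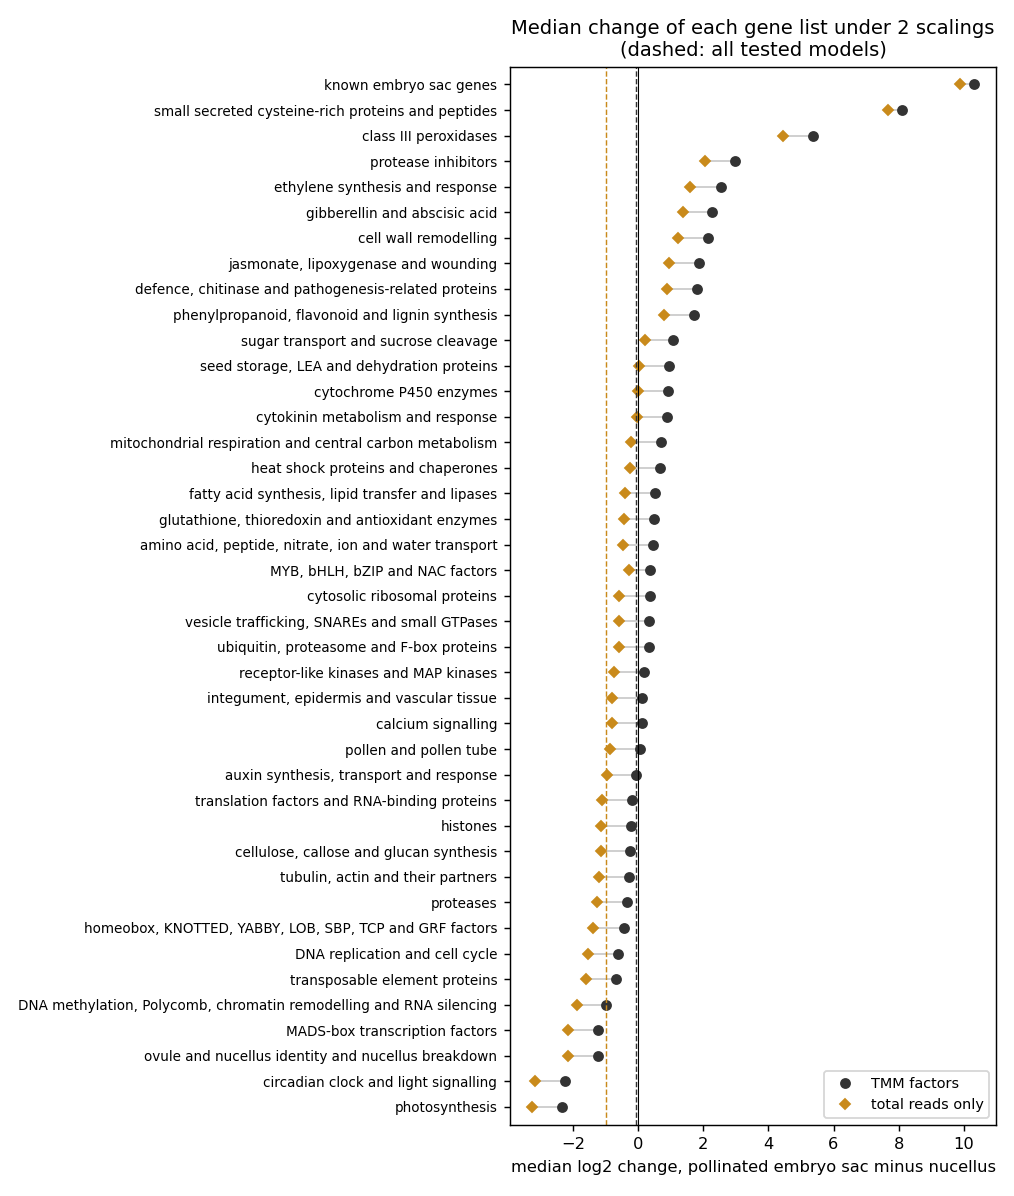
Median log2 change, pollinated embryo sac minus nucellus, of 41 gene lists with TMM factors (circles) and with total reads only (diamonds), with dashed lines at the medians of all tested models, -0.06 and -0.99. Every list lies further down with total reads, and lists such as cytokinin genes cross 0 while the leading lists stay above it.

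Models of the same gene could differ in their calls, and only unique reads were counted, so models, and genes with near-identical copies, lack the reads they share, and their values are uncertain. MADS6 (GRMZM2G159397) is an example: its second model GRMZM2G159397_T02 had 4.57 and 1.96 CPM against 114 CPM in both libraries, with a log2 change of -5.12 ± 0.26, while GRMZM2G159397_T01 had 213 and 262 CPM against 328 and 338 CPM and did not pass the size threshold. Summed over models, this gene had a log2 change of -0.89, smaller than the threshold. An actin model (GRMZM2G478779_T01), of a gene with 4 models, was lower and had 0.508 and 1.47 CPM against 90.1 and 83.2 CPM. Also, 40S ribosomal protein S18 (GRMZM2G389015_T04) and splicing factor RSP41 (GRMZM2G121269_T02) were lower, at 1.01 and 3.92 CPM against 53.4 and 43.8 CPM and at 1.01 and 1.47 CPM against 54.8 and 43.3 CPM, in genes with 4 and 3 models. These are values of single models, not of their whole genes.

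Markers of other tissues were read beside these results. Pollen and pollen tube genes had 6 of 15 tested models higher and 5 lower, turning to 4 and 7 with total reads, and summed to 314 and 366 CPM in the pollinated libraries against 158 and 186 CPM in the nucellus libraries, and to 148 and 147 CPM in unpollinated embryo sac. Of 61 listed pollen models, 20 had no read in pollinated embryo sac and 25 none in nucellus. A pollen-specific protein C13 precursor (GRMZM2G317406_T01) had 7.62 and 10.3 CPM and no read in either nucellus library. An anther-specific proline-rich protein (GRMZM2G045215_T01) had 46.7 and 43.1 CPM against 1.6 and 0.867 CPM, with 1.78 and 2.29 CPM in unpollinated embryo sac. Among the lower members, pollen-specific protein SF3 (GRMZM2G004959_T01) had 3.55 and 5.39 CPM against 35.1 and 41.2 CPM. Another anther-specific proline-rich model (GRMZM2G099802_T03) had no read in either pollinated library and 7.11 and 5.20 CPM in nucellus. The part of pollen genes in the results was not tested. Photosynthesis genes had 1 of 12 higher and 9 lower and summed to 54.3 and 58.3 CPM in the pollinated libraries against 174 and 182 CPM in the nucellus libraries. Chlorophyll a-b binding protein 1 (AC207722.2_FGT009), a light-harvesting protein, had no read in either pollinated library and 21.6 and 18.6 CPM in nucellus. Ovule and nucellus genes had 3 of 9 higher (33.3%) and 5 lower (55.6%), and the higher ones were all cysteine proteases. Integument, epidermis and vascular genes had 6 of 13 higher (46.2%) and 3 lower (23.1%), turning to 5 and 6 with total reads. Storage and dehydration genes had 4 of 9 higher (44.4%) and 2 lower (22.2%), turning to 2 and 3 with total reads. The smallest p among them was that of oleosin 18 kDa (GRMZM2G480954_T01), a lipid body protein, with 365 and 339.8 CPM against 1.15 and 2.38 CPM.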

How the data were processed

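RNA-seq of the maize line Q319 was used, with 2 libraries per tissue and 3 tissues, grouped by the tissue in the labels. For each library the authors deposited unique read counts of transcript models and RPKM values, as the file headers name them. Dividing each count by model length and by the unique reads of its library gave the deposited RPKM back within a relative difference of 1.39e-08. What aligner, counter, build or strand setting was used is not given in the sources used here. The tables listed 42007 models of 31057 genes, 8024 of them with more than 1 model. Symbols for 17131 genes (55.2%) were looked up in RefSeq genes of Zm-B73-REFERENCE-NAM-5.0, used for names only.

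The test was that of edgeR 4.0.16, run under R 4.3.3 (filterByExpr, TMM, robust quasi-likelihood fit) over all 6 libraries in one model without a block, and p-values were adjusted by Benjamini-Hochberg over 18844 models. Levels are CPM on TMM-scaled library sizes, and log2 changes are given ± SE. Libraries of a tissue differed by more than sampling noise (chi-square per degree of freedom 1.50 and 1.56 for pollinated embryo sac and nucellus). With no read in the lower tissue, a fold is a bound against 3 reads per library (0.669 CPM in nucellus, 1.50 CPM in pollinated embryo sac on average), and with 1 to 3 reads a ratio with its exact 95% interval, both for counting error only. On simulated data with 17778 models, 94% of models changed by 1.5 and 100% of those changed by 3 on the log2 scale were recovered, with 4 false among 198 calls. In it 100 models of each size were changed around a profile shared by both tissues. It therefore does not measure false calls where most models differ and the scaling moves the balance, as in these data.

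The 41 gene lists match search terms in the deposited descriptions. Only descriptions with an e-value of at most 1e-05 and a named protein counted, 20.0% of tested models. Named were, in each direction, the 15 largest called changes with such a description, at least 10 CPM and no overlap of the tissues. Lack of overlap was thus a condition for these models and is no support for them. Also named were, for each list, the called members with the smallest p and the largest change, and all known embryo sac genes. The 5 highest RPKM per tissue and the 3 undescribed called models of highest RPKM in each direction were added. Part of these is named. P-values measure the spread between these samples. Models chosen after their values were seen are GRMZM2G014392_T01, GRMZM2G025592_T01, GRMZM2G052890_T01, GRMZM2G057328_T01, GRMZM2G072529_T01, GRMZM2G109130_T01, GRMZM2G118345_T01, GRMZM2G144648_T01, GRMZM2G152415_T01, GRMZM2G157727_T02, GRMZM2G158252_T01, GRMZM2G159397_T01, GRMZM2G163015_T01, GRMZM2G339751_T01, GRMZM2G367834_T01, GRMZM2G369472_T01, GRMZM2G380656_T01, GRMZM2G401328_T01, GRMZM2G420801_T01, GRMZM2G445634_T01 and GRMZM5G817173_T03. The comparison and the lists were chosen with earlier results of these data known, and list terms were corrected for false matches after descriptions and initial counts had been seen. Alternatives used DESeq2 1.42.0 and limma 3.58.1. Protein sequences were not used here.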

Additional observations from a re-analysis of the deposited data

How the results depend on the processing

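With total reads 3249 models were higher and 9250 lower, against 5132 and 5268 in the report. Limma on log2(RPKM + 1), which changed the tool, the scale, the filter and the tested set together (24492 models), gave 3572 and 10609, and the cause was not tested. Other settings stayed within 1.5 times of these counts, with 4743 and 4355 for DESeq2, 6093 and 6591 without a filter on low counts, and 4944 and 4899 with models summed per gene. Leaving out a library in turn gave 5157 to 5367 higher and 4965 to 5012 lower models. Deviations of same-numbered libraries did not correlate (r = 0.01 between pollinated embryo sac and nucellus). With 2 libraries per tissue this cannot exclude that the numbers pair the samples, and the labels do not say. A replicate block gave 5104 higher and 5190 lower models. Of 41 lists, 12 had more calls higher and 12 more calls lower under all 5 scalings and tools compared, and 17 had another balance in some of them. Of 2329 values of named models under the alternatives, 2303 kept their side of the threshold. Values of called models among these also kept their direction, while a change of sign in models not called was not counted as a reversal. The 1 reversal of a called model was that of a receptor kinase model (GRMZM5G815009_T01). It had no read in pollinated embryo sac and was lower as a model. Its log2 change became 0.67 when summed per gene, where the other model of its gene is added. An uncharacterized precursor (EF517601.1_FGT016) lost its call when replicate 1 or replicate 2 of pollinated embryo sac was left out (log2 change -4.46 and -4.03, adjusted p = 0.0742 and 0.0834 by edgeR). Depth limits levels under 3 reads per library, and 2 libraries per tissue limit every estimate of spread.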

Other observations

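For many gene groups of general cell function the balance of calls changed with the scaling. Of all tested models 27.2% were higher and 28.0% lower. Cytosolic ribosomal proteins had 20 of 127 models higher and 26 lower, with a median log2 change of 0.34, opposite in sign to the balance of calls, and 6 and 41 with total reads. Translation factors and RNA-binding proteins had 9 of 77 higher and 21 lower, and 2 and 41 with total reads. Respiration and central carbon genes had 33 of 89 higher and 13 lower, turning to 8 and 22 with total reads. Among them a mitochondrial 2-oxoglutarate/malate carrier (GRMZM2G436593_T01), which moves these acids across the inner membrane, had 5661 and 5955 CPM against 574 and 626 CPM in nucellus, and a succinate dehydrogenase iron-sulfur protein (GRMZM5G801091_T01) had 2.03 and 1.96 CPM against 38.8 and 36.2 CPM. Trafficking genes had 28 of 79 higher and 10 lower, turning to 11 and 26, with prenylated Rab receptor 2 (GRMZM2G089783_T01) at 757 and 832 CPM against 30.1 and 26.9 CPM. Chaperones had 26 of 62 higher and 9 lower, turning to 12 and 17, with 16.9 kDa class I heat shock protein 1 (GRMZM2G158232_T01) at 74.6 and 73.5 CPM against 0.688 and 0.217 CPM.

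Signalling and transport groups are read beside the shares of all tested models, 27.2% higher and 28.0% lower. Receptor-like and MAP kinases had 18 of 62 higher (29.0%) and 20 lower (32.3%), near those shares. The counts were 15 and 13 by DESeq2, 13 and 27 with total reads and 12 and 27 by limma. Calcium signalling genes had 19 of 62 higher (30.6%) and 15 lower (24.2%), also near those shares, turning to 11 and 27 with total reads. A touch-induced calmodulin-related protein (GRMZM2G097900_T01) had 1695 and 1733 CPM against 112 and 126 CPM. Transporters had 20 of 50 higher and 14 lower, turning to 14 and 22. An ABC transporter of subfamily G (GRMZM5G870629_T01) had 5.08 and 4.9 CPM against 75.9 and 76.2 CPM. Lipid genes had 24 of 55 higher and 13 lower, turning to 16 and 21, and antioxidant genes had 27 of 70 higher and 15 lower, turning to 21 and 27. MYB, bHLH, bZIP and NAC factors had 20 of 44 higher and 13 lower, turning to 15 and 20. A NAC transcription factor (GRMZM2G181605_T01) had 122 and 114 CPM against 3 reads in nucellus. Ubiquitin genes had 35 of 121 higher (28.9%) and 29 lower (24.0%), near the shares of all tested models, turning to 18 and 50. Cytoskeleton genes had 12 of 55 higher and 21 lower, and 5 and 30 with total reads. Transposable element proteins had 7 of 29 higher and 11 lower, and 4 and 19 with total reads.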
